A study of Mus musculus with 9 samples.

Results

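The genes described here encode the enzymes and carriers of the citrate cycle, of pyruvate entry into it and of mitochondrial fatty acid oxidation, 39 genes in all, in quadriceps femoris, a thigh muscle, of female C57Bl/6 HT transgenic mice. They were taken by gene name from a fixed list, which was drawn up with earlier results of these data known. Each was read from the 1 probe set of the platform annotation with the highest mean over the 9 arrays. Of the 39 genes 37 could be tested among 9697 genes measured; the annotation used names Acsl1 on 0 probe sets, and Cpt1b is named on 1 probe set that also names other genes. By role the list holds 14 citrate cycle genes, 5 genes of pyruvate entry, 6 of fatty acid uptake, activation and carnitine transfer, of which 4 were tested, and 14 of beta-oxidation and electron transfer.

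The line overexpresses self MHC class I, the molecule that shows peptides to T cells, in skeletal muscle, and doxycycline keeps the transgene off. In the early group (n = 3) the drug was stopped at 21 days of age and muscle was taken at 35 days, after 2 weeks of expression. In the late group (n = 3) it was stopped at 35 days and muscle was taken at 50 days. Control mice (n = 3) stayed on doxycycline and were killed at 35 days; by the treatment description they were single transgenic littermates, yet all 3 groups carry 1 strain label. The promoter that drives the transgene is not given in the sources used here. Since late mice were killed at a greater age than controls, age and induction cannot be told apart there, and the early and late comparisons share the same 3 control arrays. Both induced groups were off the drug when muscle was taken and the controls were not. Drug withdrawal, and any difference in genotype, can therefore not be told apart from induction in either comparison with the controls. Levels are log2 expression values of the arrays, and a difference of 1 is a doubling. A gene is said to have risen or fallen only where its limma test passed at an adjusted p under 0.05 over all 9697 genes.

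Muscle makes most of its ATP from pyruvate and fatty acids inside mitochondria. Pyruvate is turned into acetyl-CoA by the pyruvate dehydrogenase complex, fatty acids are carried in as carnitine esters and cut to acetyl-CoA by beta-oxidation, and both streams meet in the citrate cycle, whose reduced cofactors feed the respiratory chain. Slow and fast oxidative fibres hold more of these enzymes than fast glycolytic fibres, and nuclear receptors of the PPAR and ERR type with the coactivator PGC-1alpha are known to raise their transcription.

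Because Suclg2, Acads and Etfdh were the members that passed the test between the early and late groups, their promoter sequences are shown, each the 250 bases before a transcript start of the gene, on the gene's own strand, from RefSeq on build GRCm38.p6. The Suclg2 window precedes a transcript start that lies slightly inside the span of the gene, so its last bases belong to that span. Capitals mark matches to the motifs named next: a nuclear receptor half-site (AGGTCA), its direct repeat 1 base apart (AGGTCANAGGTCA), its extended form (TCAAGGTCA), an NRF1 type palindrome (GCGCATGCGC), a CCAAT box (CCAAT), a GC box (GGGCGG) and a TATA box (TATAAA), each searched on both strands; the half-site lies within the repeat and within the extended form.
Suclg2, chr6:95718847-95719096, minus strand: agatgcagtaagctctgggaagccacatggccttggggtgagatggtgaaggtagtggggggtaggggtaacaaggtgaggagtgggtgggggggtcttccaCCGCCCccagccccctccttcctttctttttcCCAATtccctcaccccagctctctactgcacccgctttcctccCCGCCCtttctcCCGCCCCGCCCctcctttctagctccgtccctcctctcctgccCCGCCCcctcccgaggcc
Acads, chr5:115119347-115119596, minus strand: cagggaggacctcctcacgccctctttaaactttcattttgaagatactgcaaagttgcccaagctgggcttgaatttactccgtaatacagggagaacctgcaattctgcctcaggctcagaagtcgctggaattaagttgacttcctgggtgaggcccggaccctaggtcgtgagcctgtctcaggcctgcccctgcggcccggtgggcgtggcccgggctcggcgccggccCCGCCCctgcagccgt
Etfdh, chr3:79628768-79629017, minus strand: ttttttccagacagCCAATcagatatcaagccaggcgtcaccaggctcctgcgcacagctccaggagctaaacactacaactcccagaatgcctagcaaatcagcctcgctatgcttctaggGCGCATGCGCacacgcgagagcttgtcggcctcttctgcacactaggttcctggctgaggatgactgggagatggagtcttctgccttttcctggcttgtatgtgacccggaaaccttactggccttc
The Suclg2 window holds 5 GC boxes, all read on the opposite strand, and 1 CCAAT box. Only 1 GC box was found in the Acads window, and the Etfdh window holds a CCAAT box and the NRF1 type palindrome, from 128 to 119 bases before the start. Such windows were at hand for 35 of the 39 listed genes and for 27025 genes in all, 32851 windows together. A gene with several windows was counted if any of them matched. The genes in all were not matched to the listed ones in kind of gene or number of windows. A GC box was found in 22 of the 35 (62.9%) and in 35.4% of all genes, and a CCAAT box in 17 (48.6%) and in 37.5%. Etfdh was the 1 listed gene with the palindrome, which 0.877% of all genes have. The half-site occurred in 6 listed genes (17.1%: Sucla2, Fh1, Cd36, Acadm, Acadvl and Echs1) and in 15.8% of all. Neither the repeat nor the extended form was found in the windows of the 35 genes, where 0.0407% and 0.422% of all genes have them. None of these windows held a TATA box, which 14.3% of all genes have. Hadha and Hadhb, the alpha and beta subunits of the mitochondrial trifunctional protein, have transcript starts 273 bases apart and are read in opposite directions.

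The labels were checked first on the transgene's class of genes. The class I gene H2-K1 was read at 10.88, 10.47 and 10.21 in the controls, at 14.67, 14.64 and 14.69 in the early arrays and at 14.20, 13.11 and 14.31 in the late arrays, by a probe set that can also read related class I genes. It was higher by 4.14 ± 0.31 (SE) in early and by 3.35 ± 0.31 in late muscle (adjusted p = 0.00115 and 0.00446). The muscle identity markers (8 of 8 measured, Ckm and Acta1 among them) stayed within -0.16 to 0.07 of the control mean in every array by their median. T and B cell markers Cd3e, Cd3g, Cd4 and Cd79a lay under the floor of 5 in all arrays. Other lists differed between arrays of the same group: the slow fibre median (11 of 12 markers) relative to the controls was 2.99, 0.67 and -2.29 in early 1, 2 and 3 and 3.73, 3.09 and -0.85 in late 1, 2 and 3, so the arrays with replicate number 3 stood apart from the others of their group.

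**Figure D1:**
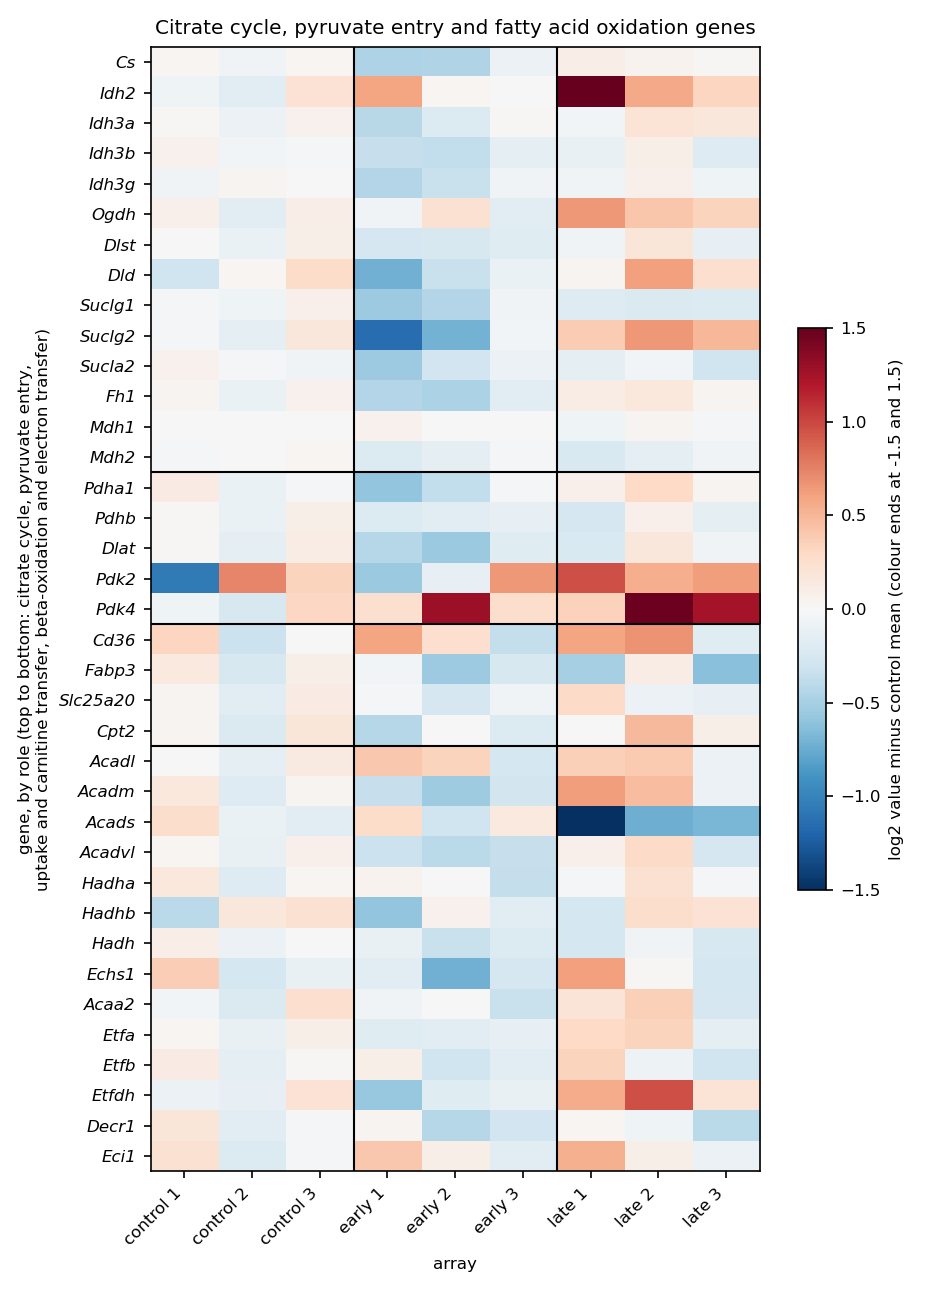
Values of the 37 tested genes (vertical) in each of the 9 arrays (horizontal), as the log2 value minus the mean of the 3 controls; red is above and blue below that mean, and the colour scale ends at -1.5 and 1.5. Blue prevails in all 3 early arrays, where 10, 9 and 4 of the 37 genes lie above the control mean, and Acads is the darkest blue cell, in late 1.

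Early against control asks what 2 weeks of class I expression, and of drug withdrawal, go with in young mice. None of the 37 tested genes passed (0 of 37, beside 1.19% of all genes), and at an unadjusted p under 0.05 there were 6 (16.2%, beside 18.5%). Most members were slightly lower in early muscle: 29 of 37 differences were negative (78.4%, beside 54.1% of all genes), with a median of -0.22, a factor of 1.16, where the median of all genes was -0.03. In 11 members (29.7%) every early array lay below every control array, which 13.9% of all genes do, and in 0 members every early array lay above, which 9.63% do. By role the median was -0.28 for the citrate cycle, -0.16 for pyruvate entry, -0.16 for uptake and carnitine transfer and -0.19 for beta-oxidation and electron transfer. The differences ranged from -0.63 (Suclg2) to 0.59 (Pdk4). Some other lists also leaned lower: 12 of 12 fast fibre, 7 of 7 white adipocyte and 9 of 10 endothelial markers were negative. Muscle identity (5 of 8), slow fibre (5 of 11), macrophage (2 of 9) and fibroblast (2 of 6) markers were mixed or leaned higher. The members were also brighter than most genes, with a median level of 12.24 in control 1, beside 8.43 for all genes.

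Among the citrate cycle genes Suclg2, which encodes the GTP-forming beta subunit of succinyl-CoA ligase, had the largest early difference. Its levels were 10.67, 10.54 and 10.86 in the controls and 9.55, 9.98 and 10.64 in the early arrays. Early 1 and 2 lay well below the controls and early 3 lay within them, and the difference of -0.63 ± 0.25 did not pass (adjusted p = 0.239). The alpha subunit Suclg1 and the ATP-forming beta subunit Sucla2 differed by -0.35 and -0.31. Fh1, fumarase, stood at 13.21, 13.07 and 13.23 in the controls and at 12.72, 12.69 and 13.00 in the early arrays, which lay below all controls; the difference was -0.36 ± 0.13 (adjusted p = 0.209). Cs, citrate synthase, which brings acetyl-CoA into the cycle, was read at 14.36, 14.27 and 14.35 against 13.86, 13.87 and 14.23. The groups did not overlap, though early 3 lay just below the lowest control, and the difference of -0.34 ± 0.14 did not pass either (adjusted p = 0.245). The 3 subunits of NAD-dependent isocitrate dehydrogenase, Idh3a, Idh3b and Idh3g, were close to one another at -0.20, -0.29 and -0.27. Of the 2-oxoglutarate dehydrogenase complex, Dlst, the E2 subunit, differed by -0.23 and Dld, the E3 subunit shared with pyruvate dehydrogenase, by -0.39, while Ogdh, the E1 subunit, differed by 0.00. Mdh1 and Mdh2, the cytosolic and mitochondrial malate dehydrogenases, differed by 0.02 and -0.12. Idh2, the mitochondrial NADP-dependent isocitrate dehydrogenase, differed by 0.20.

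At the entry of pyruvate, the E2 subunit Dlat was read at 11.45, 11.30 and 11.54 in the controls and at 11.00, 10.87 and 11.24 in the early arrays. All early arrays lay below all controls, and the difference was -0.39 ± 0.16 (adjusted p = 0.242). The E1 subunits Pdha1 and Pdhb differed by -0.33 and -0.16. Pdk4, a kinase that switches the complex off and spares glucose, went the other way, at 11.67, 11.49 and 12.04 in the controls and 11.97, 13.02 and 11.99 in the early arrays. Only early 2 lay above all controls, and the difference of 0.59 ± 0.36 (adjusted p = 0.392) was 0.25 without that array. The kinase Pdk2 differed by -0.01.

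None of the fatty acid genes passed in early against control either. For uptake and transfer, Cd36, a membrane transporter of fatty acids, differed by 0.16, the cytosolic binding protein Fabp3 by -0.27, the carnitine carrier Slc25a20 by -0.11 and carnitine palmitoyltransferase 2, Cpt2, by -0.21. Acadm, the medium-chain acyl-CoA dehydrogenase, was read at 12.92, 12.57 and 12.81 in the controls and at 12.41, 12.23 and 12.49 in the early arrays. Every early array lay below every control, and the difference was -0.39 ± 0.20 (adjusted p = 0.329). Of the other dehydrogenases of the first step, Acadvl for very long chains differed by -0.36, Acadl for long chains by 0.16 and Acads for short chains by 0.04. The later steps of the spiral, catalysed by Echs1, Hadh, Hadha, Hadhb and Acaa2, differed by -0.38, -0.22, -0.10, -0.23 and -0.13. The electron transfer flavoprotein subunits Etfa and Etfb and its dehydrogenase Etfdh differed by -0.16, -0.12 and -0.29. The auxiliary enzymes of unsaturated fatty acids, Decr1 and Eci1, differed by -0.22 and 0.11.

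The count of 0 depended on 1 array. Without early 3, 4 of 37 members passed, all lower (Cs, Fh1, Suclg1 and Suclg2), while 18.1% of all genes did. Without early 3 and late 3 together 2 passed, beside 16.3% of all genes. The member median was -0.25 in both cases.

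**Figure D2:**
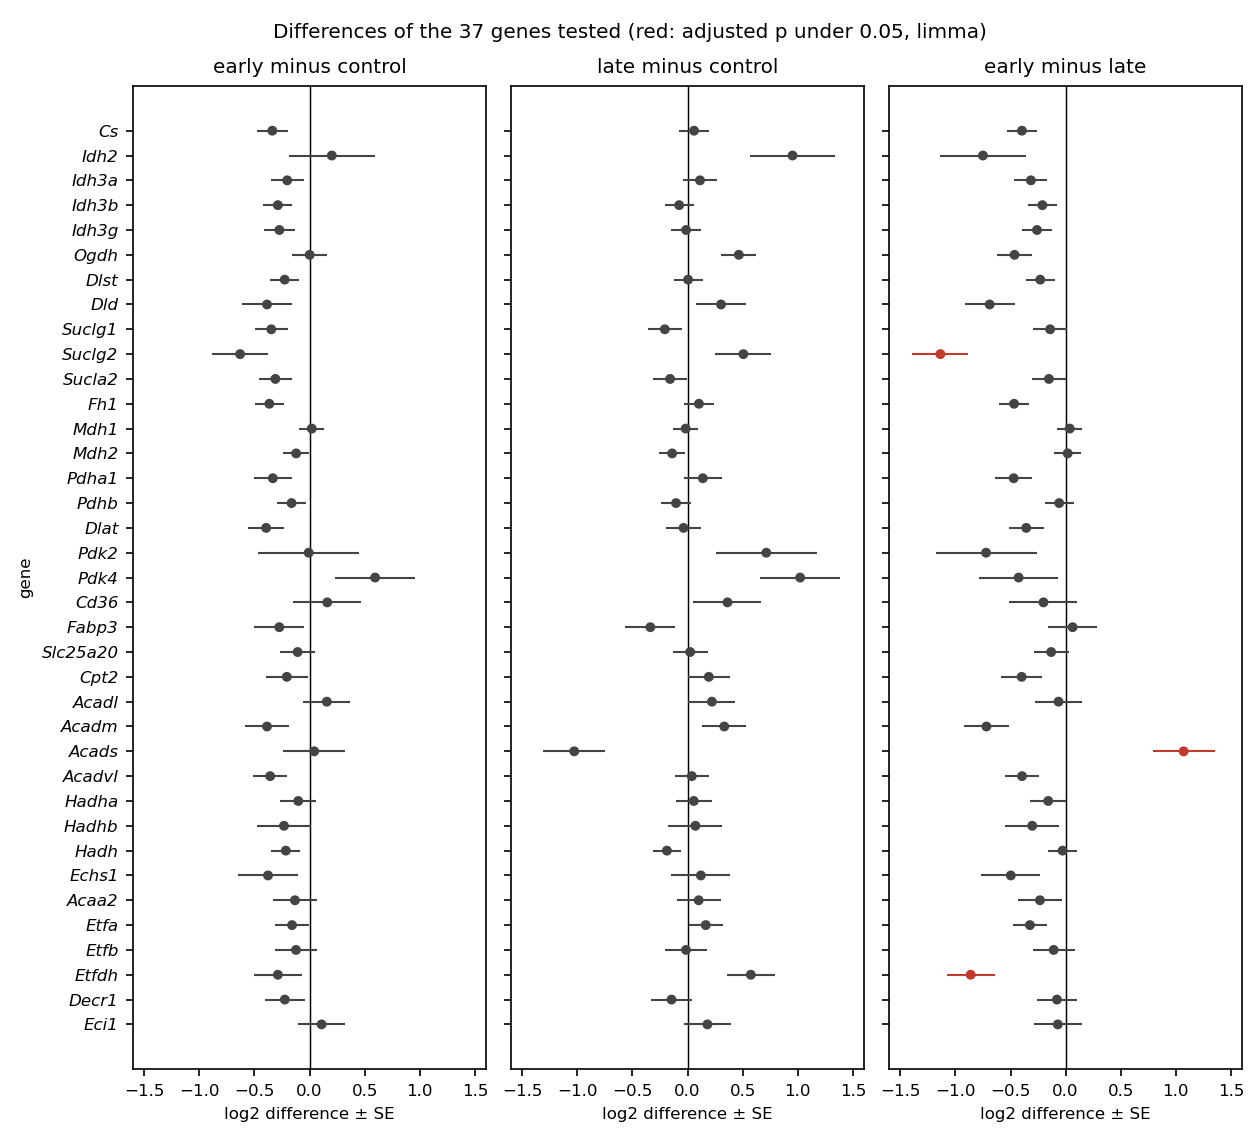
Fitted log2 difference of each of the 37 tested genes (points) with its standard error (bars) in 3 comparisons; red marks an adjusted p under 0.05. Suclg2 at -1.14, Etfdh at -0.86 and Acads at 1.07 in early minus late are the red points, and no point is red in the comparisons with the controls.

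Late against control asks the same of older mice after an induction of like length. Again 0 of 37 members passed, beside 0.206% of all genes, and 5 (13.5%) had an unadjusted p under 0.05, beside 17.3%. The members had no common direction: 24 differences were positive (64.9%, beside 51.2% of all genes) and 13 negative, and the median was 0.07, beside 0.01 for all genes. Every late array lay above every control array for Idh2, Ogdh, Suclg2 and Pdk4, 4 members (10.8%, beside 16.0% of all genes), and below for Suclg1, Mdh2 and Acads, 3 members (8.11%, beside 14.9%). The role medians were 0.03 for the citrate cycle, 0.14 for pyruvate entry, 0.11 for uptake and carnitine transfer and 0.09 for beta-oxidation and electron transfer.

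Acads, the short-chain acyl-CoA dehydrogenase, had the largest late difference. It was read at 9.84, 9.47 and 9.41 in the controls and at 7.91, 8.83 and 8.89 in the late arrays. All late arrays lay below all controls, late 1 farthest, and the difference of -1.03 ± 0.28, a factor of 2.04, did not pass (adjusted p = 0.142); without late 1 it was -0.71. Acadm and Acadl, which act on longer chains, differed the other way by 0.33 and 0.22, and Acadvl differed by 0.04. Etfdh, which hands electrons from these dehydrogenases to ubiquinone, differed by 0.57 ± 0.22 (adjusted p = 0.242). The other beta-oxidation and electron transfer members lay between -0.19 (Hadh) and 0.18 (Eci1).

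Pdk4 levels were 12.08, 13.20 and 12.98 in the late arrays, above all 3 controls. Its difference of 1.02 ± 0.36, a factor of 2.03, did not pass (adjusted p = 0.223). Pdk2 was read at 10.49, 12.28 and 11.89 in the controls and at 12.52, 12.10 and 12.18 in the late arrays. Control 1 was far below the rest and the groups overlapped, so that the difference of 0.71 ± 0.46 (adjusted p = 0.450) was 0.18 without that array. Pdha1, the subunit these kinases phosphorylate, and its partners Pdhb and Dlat differed by 0.14, -0.10 and -0.04.

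Idh2 stood at 9.27, 9.18 and 9.55 in the controls and at 11.29, 9.90 and 9.66 in the late arrays. All late arrays lay above the controls but only late 1 did so by a wide margin, and the difference of 0.95 ± 0.39 (adjusted p = 0.269) was 0.45 without it. Ogdh was read at 12.244, 12.004 and 12.269 in the controls and at 12.819, 12.583 and 12.511 in the late arrays, which lay above all controls at a difference of 0.47 ± 0.16 (adjusted p = 0.211). Suclg2 differed by 0.51 ± 0.25 (adjusted p = 0.339). Suclg1 and Sucla2, its partner and its ATP-forming counterpart, differed by -0.21 and -0.16, so the 3 genes of succinyl-CoA ligase did not lie on one side of the controls. Cs, Fh1 and the 3 Idh3 genes lay between -0.08 (Idh3b) and 0.11 (Idh3a).

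Early against late compares the group means directly, but between mice of different age, and the control arrays enter only the estimate of the spread. In it 3 of 37 members passed (8.11%), beside 11.5% of all genes; 2 were lower in early muscle (Suclg2 and Etfdh, beside 6.23% of all genes) and 1 was higher (Acads, beside 5.31%). The share of members that passed was therefore no larger than that of all genes, and the same held at an unadjusted p under 0.05, with 10 members (27.0%) beside 34.2%. Direction was more uniform: 33 of 37 differences were negative (89.2%, beside 53.0% of all genes), with a median of -0.26, beside -0.03. In 10 members (27.0%, beside 18.3% of all genes) every early array lay below every late array, and in 1 member, Acads, every early array lay above (2.7%, beside 13.7%). The 10 were Cs, Ogdh, Dlst, Dld, Suclg2 and Fh1 of the citrate cycle, Pdha1 of pyruvate entry, and Acadm, Acadvl and Etfdh of fatty acid oxidation. Fast fibre (10 of 12) and white adipocyte (7 of 7) markers were mostly negative here too. Endothelial (6 of 10), slow fibre (7 of 11) and muscle identity (5 of 8) markers were mixed, and macrophage (1 of 9) and fibroblast (1 of 6) markers mostly positive.

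Suclg2 was lower in early than in late muscle by 1.14 ± 0.25, a factor of 2.2 (fitted difference -1.14, limma adjusted p = 0.0313). Its late levels of 11.06, 11.34 and 11.18 all lay above the early levels, the highest of which was 10.64. A second probe set of the gene gave -1.35 and passed as well where every probe set was tested by itself (adjusted p = 0.041). Etfdh was read at 10.74, 11.12 and 11.19 in the early arrays and at 11.86, 12.27 and 11.50 in the late arrays. These groups did not overlap, while late 3 lay at the level of the highest control, 11.51, and the difference was -0.86 ± 0.22, a factor of 1.82 (adjusted p = 0.0409). Acads was read at 9.85, 9.28 and 9.72 in the early arrays, above all late arrays. It was higher in early muscle by 1.07 ± 0.28, a factor of 2.1 (adjusted p = 0.0449), and its early levels overlapped the controls.

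Some members came close to the threshold in this comparison. Acadm, at 13.39, 13.22 and 12.68 in the late arrays, differed by -0.72 ± 0.20 (adjusted p = 0.0516), and Fh1, at 13.28, 13.32 and 13.21, by -0.47 ± 0.13 (adjusted p = 0.0531). For both genes every early array lay below every late array. Dld differed by -0.69 ± 0.23 (adjusted p = 0.0767), Ogdh by -0.46 ± 0.16, Cs by -0.40 ± 0.14 and Pdha1 by -0.47 ± 0.17. Idh2 had the largest difference of the members that did not pass, at -0.75 ± 0.39 (adjusted p = 0.204). Its early levels of 9.92, 9.36 and 9.33 overlapped the late levels, and without late 1 the difference was -0.25. Mdh1, Mdh2, Pdhb, Fabp3, Acadl, Hadh, Decr1 and Eci1 lay between -0.08 and 0.06.

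**Figure D3:**
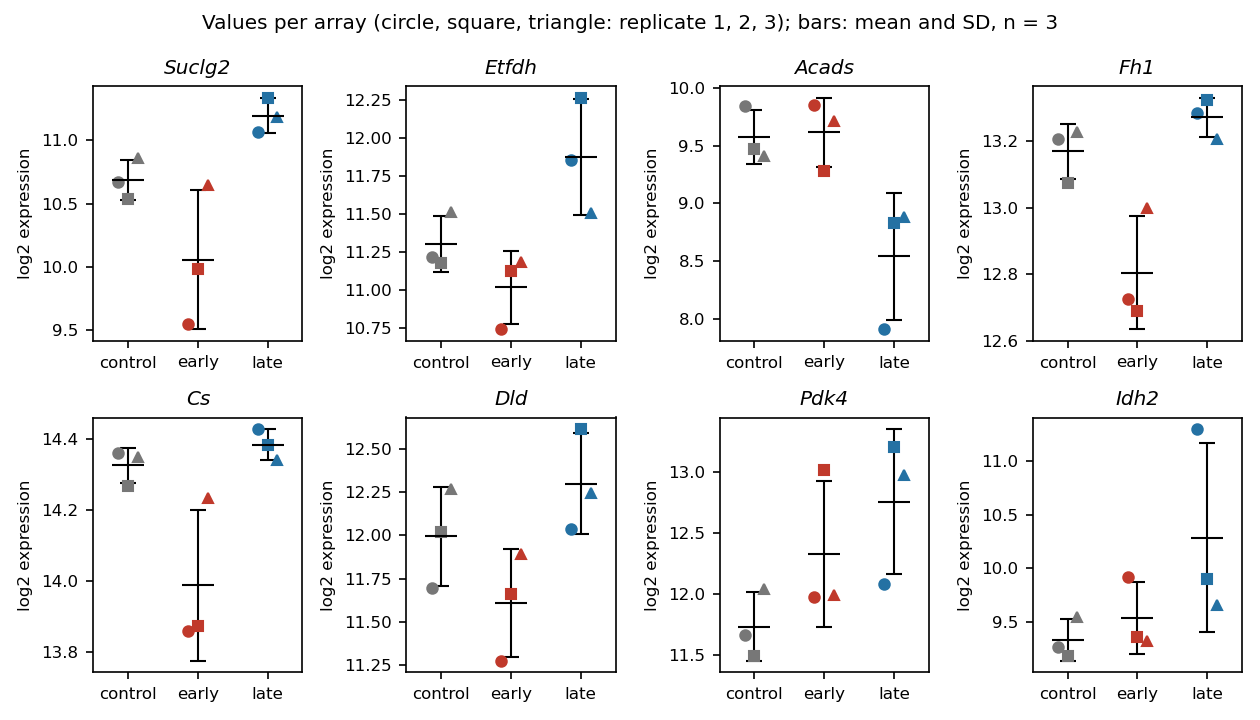
Log2 level of 8 genes (vertical, its range set per panel and not from 0) in the control, early and late groups (horizontal); each symbol is 1 array, its shape the replicate number, and bars show the mean and SD of 3 arrays. Suclg2, Etfdh, Fh1, Cs and Dld sit lowest in early muscle, Acads sits lowest in late muscle from 7.91 to 8.89, and Pdk4 is highest in late muscle.

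These calls were close to the threshold. Deviations of same-numbered early and late arrays were weakly correlated (0.168, 0.201 and 0.16), though no label names a pairing and early 1 and control 1 reached 0.35. With the replicate number as a block, 2 of 37 members passed, both lower (Dld and Suclg2), beside 11.5% of all genes. The limma adjusted p was then 0.0531 for Etfdh and 0.0658 for Acads. With only the 6 early and late arrays in the block fit 0 members and 0 of 9697 genes passed. Leaving out control 1, 2 or 3, early 1 or 2, or late 1 or 2 left 0 members called each time, where between 143 and 499 of all genes were; without late 3 there were 2 (Acadm and Etfdh), and without early 3 there were 8, beside 30.5% of all genes.

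Members read by several probe sets differed in how far those moved. Of the 37 tested genes 18 had more than 1 probe set above the floor, and at least 1 of them had the opposite sign to the one used in 3 genes for early against control, in 8 for late against control and in 4 for early against late. Idh3a, Dlat, Idh3b and Ogdh were among those with larger early differences on other probe sets. The 4 probe sets of Idh3a gave -0.20 on the one used and -0.67, -0.60 and -0.58 on the others. Dlat had another at -0.87 beside -0.39 and -0.38, and Idh3b one at -0.97 beside -0.29 and -0.33. Ogdh, at 0.00 on the one used, had a dimmer one (mean 6.51) at -0.79. In late against control that probe set gave -0.11, where the one used gave 0.47. Where each of the 67 member probe sets was tested by itself, 0, 0 and 7 passed in the 3 comparisons, beside 1.02%, 0.162% and 11.2% of 16048 probe sets. In early against late the 7 were those of Acads and Etfdh, both of Suclg2, 1 of 3 of Cs (-0.56), 1 of Decr1 (-0.84) and 1 of Dlst (-1.55), the last a dim one with a mean of 5.93. Counted by probe set, 53 of 67 differences were negative in early against control and 60 of 67 in early against late.

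**Figure D4:**
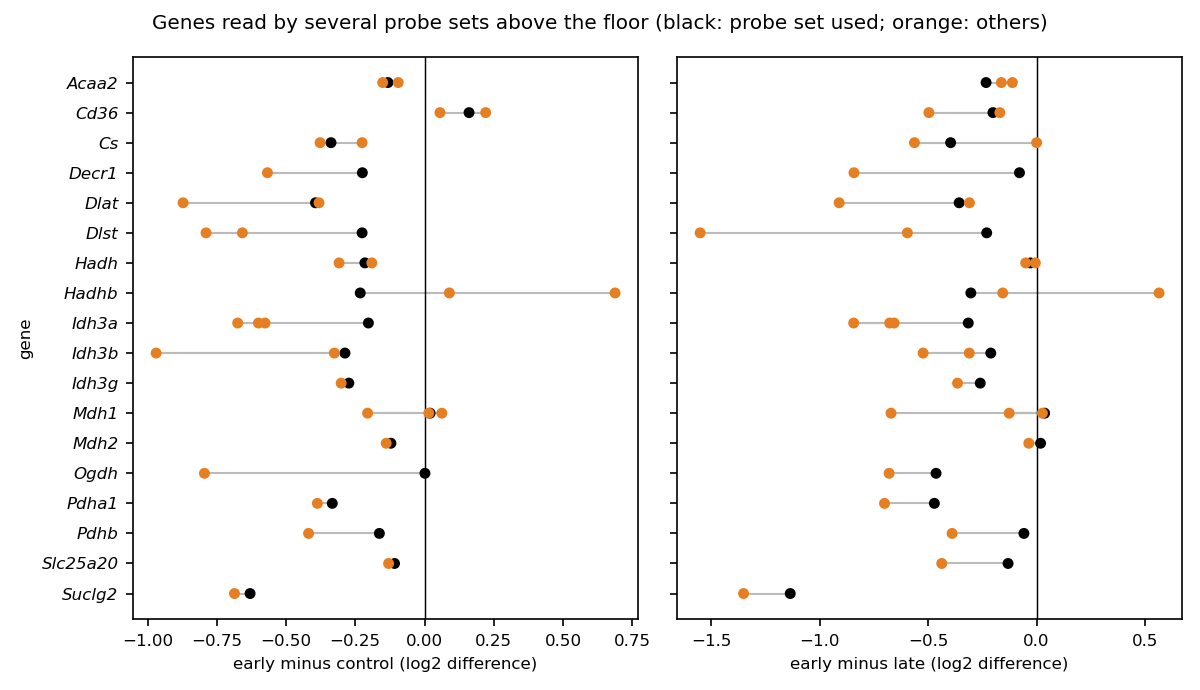
Log2 difference (horizontal) of every probe set above the floor for the 18 genes with more than 1 (vertical), early minus control at left and early minus late at right; black is the probe set used and orange the others. Suclg2 lies at -1.14 and -1.35 in the right panel, Dlst spreads from -0.23 to -1.55 there, and Hadhb has probe sets on both sides of 0.

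By array, the member median over the control mean was 0.03, -0.12 and 0.08 in the controls, -0.21, -0.25 and -0.15 in the early arrays and 0.08, 0.18 and -0.08 in the late arrays. Every early array therefore lay below every control, and late 3 lay below late 1 and 2. The citrate cycle median was -0.43, -0.31 and -0.07 in early 1, 2 and 3, and that of pyruvate entry -0.43, -0.17 and -0.03; both were nearest to the controls in early 3. Beta-oxidation and electron transfer had another order, at -0.08, -0.24 and -0.23 in the early arrays and 0.25, 0.25 and -0.19 in the late arrays, so that late 3 lay among the early arrays. Over the control mean stood 10, 9 and 4 of the 37 members in the early arrays, 25, 4 and 28 in the controls and 21, 29 and 13 in the late arrays.

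Markers of other fibre and cell types moved across the same arrays. Slow fibre markers (11 of 12 measured) had a log2 summed level between 12.90 and 14.16 in the controls, 12.57 and 15.97 in the early arrays and 13.21 and 16.23 in the late arrays, lowest in replicate 3 of both induced groups. White adipocyte markers (7 of 10 measured) had a summed level between 14.69 and 15.28 in the controls, 14.26 and 14.44 in the early arrays and 14.16 and 15.22 in the late arrays. All 7 were lower in every early array than in every control, which holds for 13.9% of all genes. Of the brown adipocyte markers 3 of 6 were measured, with Elovl3, Dio2 and Otop1 left out by the floor. Their summed level came mostly from Cox8b and lay between 14.53 and 14.75 throughout, so it does not show the course of Ucp1 and Cidea. The median of the 3 markers over the control mean was -1.29, -4.93 and -4.53 in the early arrays. Ucp1, the uncoupling protein that defines brown fat, was at 10.38, 7.74 and 9.62 in the controls, 6.33, 2.73 and 3.42 in the early arrays and 3.00, 11.68 and 6.49 in the late arrays. Cidea, the next brown fat marker, was at 9.65, 8.08 and 9.23 in the controls, 7.70, 4.06 and 4.46 in the early arrays and 4.16, 10.23 and 5.09 in the late arrays. Every early array lay below every control for both genes, again beside 13.9% of all genes. Macrophage markers (9 of 11) had a summed level between 12.64 and 13.00 in the controls, 12.47 and 13.83 in the early arrays and 12.22 and 12.84 in the late arrays, and Cd68 reached 12.06 and 11.17 in early 1 and 2 but 6.23 in early 3. Endothelial markers (10 of 10) ranged from 12.10 to 12.36, 11.66 to 12.05 and 11.87 to 12.14. Fast fibre markers (12 of 12) ranged from 18.89 to 19.02, 18.72 to 18.89 and 18.90 to 19.00. Without the arrays with Ucp1 above 10 (control 1 and late 2) the member median was -0.19 for early against control and -0.20 for early against late, and 0 members passed in either, beside 0.268% and 0.0103% of all genes. Without early 3 and late 3 the early against late median was -0.33 and 9 members passed (8 lower), beside 27.2% of all genes. The part of these other cell types in the member differences was not tested. In whole muscle, fewer cells of a type and less RNA per cell cannot be told apart.

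**Figure D5:**
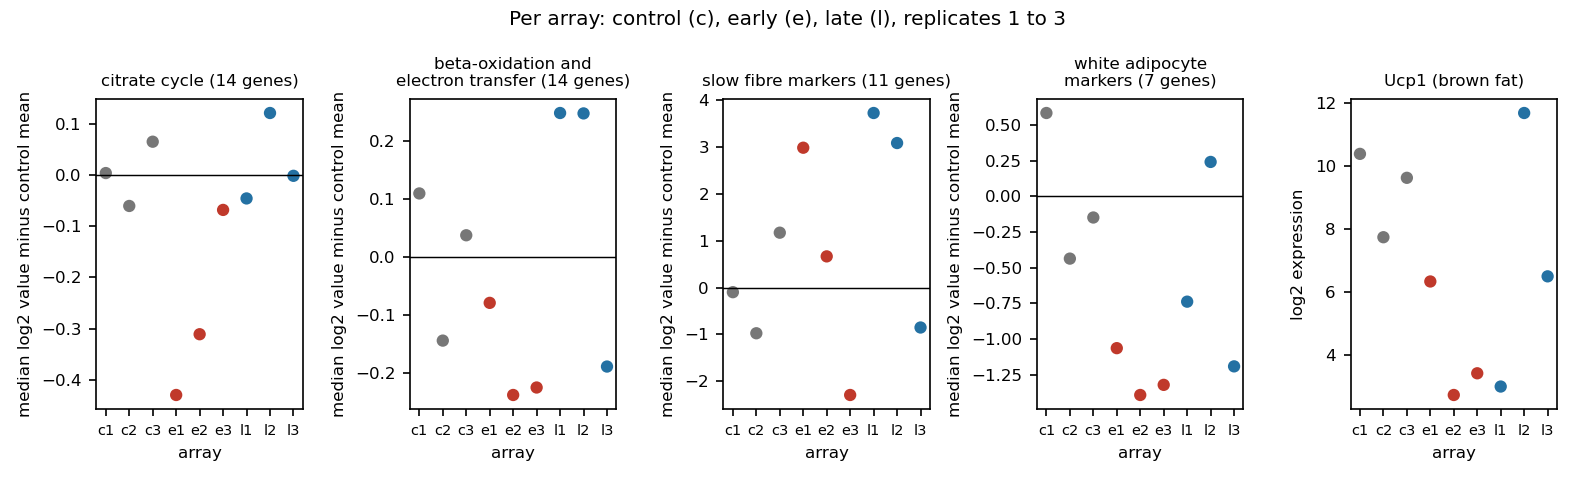
Values in each array (horizontal; c control, e early, l late, replicates 1 to 3): the median log2 value minus the control mean over citrate cycle genes, beta-oxidation and electron transfer genes, slow fibre markers and white adipocyte markers, and the log2 level of Ucp1. The citrate cycle median is lowest in early 1 at -0.43, the slow fibre median runs from -2.29 to 3.73, and Ucp1 runs from 2.73 to 11.68.

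Other genes of these pathways were read from lists that hold none of the members. Of 30 further genes of the citrate cycle, pyruvate entry and anaplerosis, which refills the cycle, 23 were tested. In early against control and in late against control 0 passed, beside 1.19% and 0.206% of all genes, with medians of -0.31 and -0.02. In early against late 5 fell (21.7%, beside 6.23% of all genes) and 0 rose, with a median of -0.19, beside -0.03 for all genes. Sdha, the flavoprotein subunit of succinate dehydrogenase, differed by -0.78 ± 0.20 (adjusted p = 0.0412) and Pdp1, the phosphatase that reactivates pyruvate dehydrogenase, by -0.95 ± 0.22 (adjusted p = 0.0345). The malic enzymes Me1 and Me3 differed by -0.84 ± 0.18 and -1.28 ± 0.28, and Glud1, glutamate dehydrogenase, by -0.70 ± 0.16. For all 5 every early array lay below every late array, which 18.3% of all genes do. These calls were lost where the replicate block was fitted to the early and late arrays alone, since 0 of 9697 genes passed there. Sdha was read at 12.33, 12.45 and 12.95 in the early and at 13.63, 13.32 and 13.13 in the late arrays.

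Of 47 further genes of fatty acid uptake, activation, oxidation and ketone use, 42 were tested, with medians of -0.33, 0.04 and -0.27 in the 3 comparisons. Again 0 passed against the controls, beside 1.19% and 0.206% of all genes. In early against late 6 fell (14.3%, beside 6.23% of all genes) and 0 rose (beside 5.31%), where 11.5% of all genes passed in either direction. Ehhadh, the peroxisomal bifunctional enzyme, differed most among the 6, by -1.68 ± 0.33 (adjusted p = 0.0227). It was read at 5.45, 5.66 and 6.54 in the early arrays and at 7.24, 8.20 and 7.25 in the late arrays, with the controls between them from 6.98 to 7.07. Abhd5, the coactivator of the triglyceride lipase ATGL, differed by -0.89 ± 0.16, and Acacb, the acetyl-CoA carboxylase whose product malonyl-CoA inhibits carnitine transfer, by -0.88 ± 0.18. Acad11, an acyl-CoA dehydrogenase, differed by -0.78 ± 0.20, Lpl, lipoprotein lipase, by -0.64 ± 0.16, and the carnitine transporter Slc22a5 by -0.57 ± 0.15. All 6 calls were likewise lost in the block fit on the early and late arrays alone. Lpl is also a fat cell gene. The summed level of the white adipocyte markers was 14.44, 14.26 and 14.27 in the early arrays and 14.56, 15.22 and 14.16 in the late arrays. Their part in the Lpl difference was not tested.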

How the data were processed

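Quadriceps RNA of 9 mice was hybridised to Affymetrix arrays, 1 array per mouse, after copying with an oligo(dT) primer, per the labels' protocols. The deposited values are log2 expression per probe set, computed by the authors with GCRMA per the submitters' processing notes; its version is not given in the sources used here. GCRMA makes the distributions of the arrays alike, so a shift shared by all genes would not be seen. Array medians lay between 3.41 and 3.45 and 17391 to 17735 probe sets per array lay above 5; the number of arrays limits the precision. No label or header gives a scan date or batch.

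Of 45101 probe sets 34958 named 1 gene in the platform annotation, 932 several and 9211 none; 64 control probe sets were left out, and 0 symbols needed an update against GRCm38.p6. Probe sets above 5 in at least 3 arrays were kept (16048), 1 per gene by the highest mean over the 9 arrays (9697 genes). One mean per group was fitted to all 9 arrays with limma 3.58.1 (lmFit, eBayes) in R 4.3.3 and p-values were adjusted by Benjamini-Hochberg over the 9697 genes. Errors of differences are standard errors of that fit. With 3 against 3 arrays an exact test reaches p = 0.1 at the least, so none was run. P-values measure the spread between these mice. The fit was tested on simulated data. Members and lists were chosen with earlier results of these data known. Named with values in every array were the members that passed, the 4 with the largest differences and the 3 with the smallest p in each comparison; Cs and, in early against late, the values of members near the threshold were added after their values were seen. From other lists the members that passed were named, otherwise up to 4 with the smallest p; Bdh1 and Angptl4 were added for their size after their values were seen.

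Whether replicate numbers pair the arrays was checked by correlating, over the genes, how far arrays of 1 number lay from their group means: 0.168, 0.201 and 0.16 for early and late (treated as pairing, from these values alone), 0.35, 0.11 and -0.0391 for early and control, and 0.0847, -0.165 and -0.11 for late and control (not treated so). Arrays of different numbers were not correlated for comparison, so these values cannot establish a pairing.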

Additional observations from a re-analysis of the deposited data

Results flagged for a closer look

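Acads, the short-chain acyl-CoA dehydrogenase, differed between the early and late groups by 1.07 (early minus late, on the log2 scale; limma adjusted p = 0.0449), higher in 3 of 3 early arrays than in any late array. Suclg2, a subunit of succinyl-CoA ligase, differed by -1.14 (adjusted p = 0.0313), and Etfdh, which passes electrons from fatty acid oxidation to ubiquinone, by -0.86 (adjusted p = 0.0409), each lower in 3 of 3 early arrays than in any late array.

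For Cs (-0.40), Dld (-0.69), Fh1 (-0.47) and Pdha1 (-0.47) every early array lay below the control mean and every late array above it. The early against late test of these 4 did not pass, with adjusted p between 0.0531 (Fh1) and 0.0938 (Pdha1), and both sides were read against the same 3 controls. How many of all genes show this pattern was not counted. Another Cs probe set (mean 12.60) gave 0.00 in early minus late and -0.23 in late minus control, so its late mean lay below the control mean.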

How the results depend on the processing

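The member medians kept their sign in every alternative run: -0.29 to -0.17 for early against control, 0.01 to 0.13 for late against control and -0.33 to -0.20 for early against late. The named differences kept their sign too. Calls were less stable. In early against late, Suclg2 and Etfdh passed in 9 of 21 alternatives each and Acads in 8 of 21, with adjusted p from 0.00148 to 0.146, 0.0131 to 0.163 and 0.0369 to 0.147. Members called in early against late, 3 as reported, were 1 with no filter on low values, 5 with a floor of 7, 0 with only the arrays of both groups, 11 with array weights and 6 with an intensity trend. Over all genes the early against late count of 1119 was 584 with no filter, 38 with only the arrays of both groups and 3534 with array weights. For early against control, 0 members and 115 genes became 9 and 3335 with array weights, and the gene count was 56 with no filter, 61 with only both groups' arrays and 62 with the replicate block. For late against control, 0 members and 20 genes became 3 and 1037 with array weights, and the gene count was 12 with only both groups' arrays, 12 without probe sets that can read several transcripts and 5 with the replicate block. The array weights did not fully converge. H2-K1 in early against late passed with array weights (0.95) and with the mean of all probe sets (1.32).

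With 1 array left out, early against control gave 0 to 4 members and 6 to 1756 genes, late against control 0 members and 5 to 59 genes, and early against late 0 to 8 members and 143 to 2959 genes. An arm of 2 arrays was then assumed to vary like the others. The replicate block, treated as pairing for early and late arrays, called 2 members in that comparison, of which Suclg2 was called without it and Dld was not, while Etfdh and Acads were lost; it changed no member call against the controls. Chosen after seeing the data were 4 alternatives. The block on the early and late arrays alone gave 0 members and 0 genes. Without the arrays with Ucp1 above 10 the genes called were 26, 2 and 1 in the 3 comparisons, and 0 members in early against late. Without early 3 and late 3 they were 1583, 49 and 2639, with 2, 0 and 9 members. The last tested every probe set by itself. The causes were not tested. Small differences of single genes are limited by 3 arrays per group, with a median residual SD of 0.26.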

Other observations

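Regulators known to act on these genes had 19 of 21 negative differences in early against late (90.5%, beside 53.0% of all genes). The 23 listed are transcription factors and cofactors, the corepressors Ncor1 and Nrip1 among them, with the deacetylases Sirt1 and Sirt3 and the kinase subunit Prkaa2. Of the 23, 21 were tested. Since activators and corepressors are mixed, a shared direction has no single reading. In early against late 2 fell (9.52%, beside 6.23% of all genes) and 0 rose (beside 5.31%), where 11.5% of all genes passed in either direction. The median was -0.51, beside -0.03. Ppargc1a, the coactivator PGC-1alpha, was read at 8.52, 8.72 and 8.81 in the controls, 7.38, 8.24 and 8.56 in the early arrays and 9.78, 9.73 and 9.29 in the late arrays. Its groups did not overlap between early and late, and the difference was -1.54 ± 0.29 (limma adjusted p = 0.0199). Prkaa2, the catalytic alpha-2 subunit of the energy sensor AMPK, differed by -0.76 ± 0.14 (adjusted p = 0.0198), at 10.71, 10.83 and 11.10 in early and 11.75, 11.53 and 11.64 in late muscle. Both calls were lost in the block fit on the early and late arrays alone, where 0 of 9697 genes passed. How they fared in the other alternatives was not listed gene by gene. Against the controls 0 of 21 passed, with medians of -0.23 for early and 0.34 for late. The smallest p in early against control was that of Ppargc1b, a related coactivator, at -0.85 ± 0.21 (adjusted p = 0.117), and in late against control that of Lpin1, a phosphatidate phosphatase and coactivator, at 0.86 ± 0.20 (adjusted p = 0.111).

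Among the other pathway genes of late muscle, none of which passed against the controls, the largest differences were 2.91 ± 1.10 for Bdh1, a ketone body dehydrogenase (adjusted p = 0.242), and, in the other direction, those of Slc25a10 and Angptl4. Angptl4, an inhibitor of lipoprotein lipase, differed by -2.18 ± 0.86 (adjusted p = 0.257). Slc25a10, the mitochondrial dicarboxylate carrier, differed from the controls by -2.18 ± 0.48 (adjusted p = 0.0965). Among those with the smallest p, Slc25a1, the citrate carrier, differed by -1.54 ± 0.50, Fabp5, a fatty acid binding protein, by -1.04 ± 0.26, and Acot2, a mitochondrial acyl-CoA thioesterase, by 1.04 ± 0.24 (adjusted p = 0.11).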
